A study of Mus musculus with 830 samples.

Results

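The genes described here are 31 genes of the hormone granule and of regulated exocytosis taken by name as a module, among the 26313 genes listed in the count table. By role they are 7 granins and other granule cargo (Chga, Chgb, Scg2, Scg3, Scg5, Vgf, Pcsk1n), 4 enzymes of peptide hormone processing (Pcsk1, Pcsk2, Cpe, Pam), 3 proteins of the granule membrane or matrix (Ptprn, Ptprn2, Resp18), 5 small GTPases (Rab3a, Rab3b, Rab3c, Rab3d, Rab27a), 4 synaptotagmins and calcium-binding proteins (Syt4, Syt7, Syt13, Scgn), 3 SNARE proteins (Snap25, Stx1a, Vamp2) and 5 complexins and priming factors (Cplx1, Cplx2, Cadps, Unc13a, Rims2). All 31 were in the table and all 31 passed the filter on low counts.

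RNA of single endodermal cells of mouse embryos (C57BL/6XC3H) was sequenced by Smart-seq3xpress, which reads full-length transcripts in plates, after trypsin dissociation and sorting on the epithelial surface protein EpCAM with DAPI to exclude dead cells. The genotypes were compared at stages given as somite numbers. Ngn3GFP HM cells carried GFP on both Neurog3 alleles (Ngn3-GFP/GFP). Ngn3Cre cells carried a Cre driven from Neurog3 with Ai6, a Cre-dependent fluorescent reporter that stays on in descendants of a cell that once had Cre. Ngn3GFP HZ cells carried GFP on 1 Neurog3 allele (Ngn3-GFP/+) and served as the reference for both. The sources used here do not say whether a reporter was part of the sort gate. The HM, Ngn3Cre and HZ groups thus all carried a changed Neurog3 locus or a Neurog3-driven transgene, and no cells without one were analysed here.

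Peptide hormones are packed into dense-core granules, where granins condense the cargo, prohormone convertases and carboxypeptidase E cut and trim it, and peptidylglycine amidating monooxygenase amidates its end. The granules are carried and tethered by Rab3 and Rab27 GTPases and their effectors, primed by CAPS and Munc13 proteins, and fused by SNARE proteins when synaptotagmins bind calcium. Neurog3 is the transcription factor that starts the endocrine fate in gut and pancreatic epithelium, and glucagon, encoded by Gcg, is the first abundant hormone of the early mouse pancreas.

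Of these genes, 23 had an entry among the RefSeq promoters of GRCm38.p6, and 250 bases before each start were searched. The 8-letter cAMP response element TGACGTCA, a palindrome that reads alike on both strands and is bound by CREB family factors, lay in 3 of their 27 promoters, those of Scg2, Chgb and Pcsk1, against 1.55% of all 32851 promoters. These 3 are shown because they hold the full element at nearly the same distance, starting 68, 72 and 78 bases before the RefSeq start. The lines give 30 bases each, 5′ to 3′ on the strand of the gene, with the element in capitals.
Scg2: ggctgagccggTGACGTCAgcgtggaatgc
Chgb: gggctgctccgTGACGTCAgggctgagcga
Pcsk1: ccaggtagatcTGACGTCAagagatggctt
The Scg2 stretch is chr1:79440076-79440105 on the minus strand, the Chgb stretch chr2:132781559-132781588 on the plus strand and the Pcsk1 stretch chr13:75089768-75089797 on the plus strand (GRCm38). The GENCODE bounds of Scg2 and Chgb begin further upstream and take in their stretches, whereas the Pcsk1 stretch lies outside its GENCODE bounds. The shorter TGACG, searched on both strands and contained in the full element, lay in 14 of the 27 promoters and in 17.8% of all. The E-box CAGATG or its reverse complement CATCTG lay in 0 of the 27 and in 14.4% of all, and the palindromic E-box CAGCTG in 10 of the 27 and in 13.0% of all. A match describes these letters in this window and is not a site. The genes were spread over the genome, with 5 on chromosome 2 and 4 each on chromosomes 1 and 13. Ptprn and Resp18 are neighbours on chromosome 1 (75247027 to 75264502 and 75272199 to 75278415, both on the minus strand), 7696 bases apart with 0 annotated genes between them. 12 of the 31 overlap a gene on the opposite strand, and since the use of strand in counting is not given, reads of such partners cannot be told apart.

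The series holds 830 cells (171 HM, 333 Ngn3Cre and 326 HZ), each 1 deposited sample, with 1400 to 2525083 reads per cell. Median depth was 626967 reads in HM, 465918 in Ngn3Cre and 378157 in HZ cells. Embryos are not named in the labels, so cells did not serve as replicates: counts were added up by genotype and stage, and the 11 pools of at least 10 cells were tested (HM at 15, 18, 21 and 24 somites, Ngn3Cre at 21, 24 and 27 somites, HZ at 18, 21, 24 and 27 somites), with 8299225 to 70763553 reads per pool. The p-values thus rest on how far a difference varies from one stage pool to the next. Levels are CPM (counts scaled to library size) after TMM scaling, and in a pool fewer cells of a type and less RNA per cell cannot be told apart. Neurog3 itself had 10.3, 8.59, 6.18 and 11.1 CPM in HM pools, 553, 147 and 195 CPM in Ngn3Cre pools, and 132, 132, 87.7 and 79.4 CPM in HZ pools, stages ascending. It was lower in every HM pool than in every HZ pool (log2 fold change −3.69 ± 0.44 SE, adjusted p = 0.00336, edgeR quasi-likelihood test with Benjamini-Hochberg adjustment).

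In HM pools, many granule and exocytosis genes were lower than in HZ pools. 15 of 31 were called lower and 0 higher by edgeR's quasi-likelihood test (Benjamini-Hochberg adjusted over 18420 genes, 0.05), where 1.38% of all genes tested were called lower and 0.0923% higher. All 31 fold changes were negative, with a median log2 fold change of −3.23 against −0.09 for all genes, and 27 had an unadjusted p under 0.05, as had 13.4% of all genes in either direction. Stage by stage, 25, 31 and 31 of the 31 were lower in HM than in HZ at 18, 21 and 24 somites. The count was 23 with DESeq2, where 5.82% of all genes tested were called lower, 7 on shared stages alone (0.442% of all genes) and 5 with all 14 pools (0.219% of all genes). The HM pool of 15 somites is alone at its stage and carries no weight in this contrast. In this main fit the calls fell in every role except the SNARE proteins: 4 of 4 processing enzymes, 3 of 3 granule membrane or matrix proteins, 3 of 5 GTPases, 2 of 5 complexins and priming factors, 2 of 7 granins and cargo, 1 of 4 synaptotagmins and calcium-binding proteins and 0 of 3 SNARE proteins. The counts by role changed in both fits without cells that carried neural markers (below). There the SNARE protein Snap25 was also called lower, as were Scg2, Scg3, Pcsk1n, Rab3a, Syt4 and Syt7. Values of HM pools are given in the order 15, 18, 21 and 24 somites, those of Ngn3Cre pools in the order 21, 24 and 27 somites and those of HZ pools in the order 18, 21, 24 and 27 somites.

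**Figure D1:**
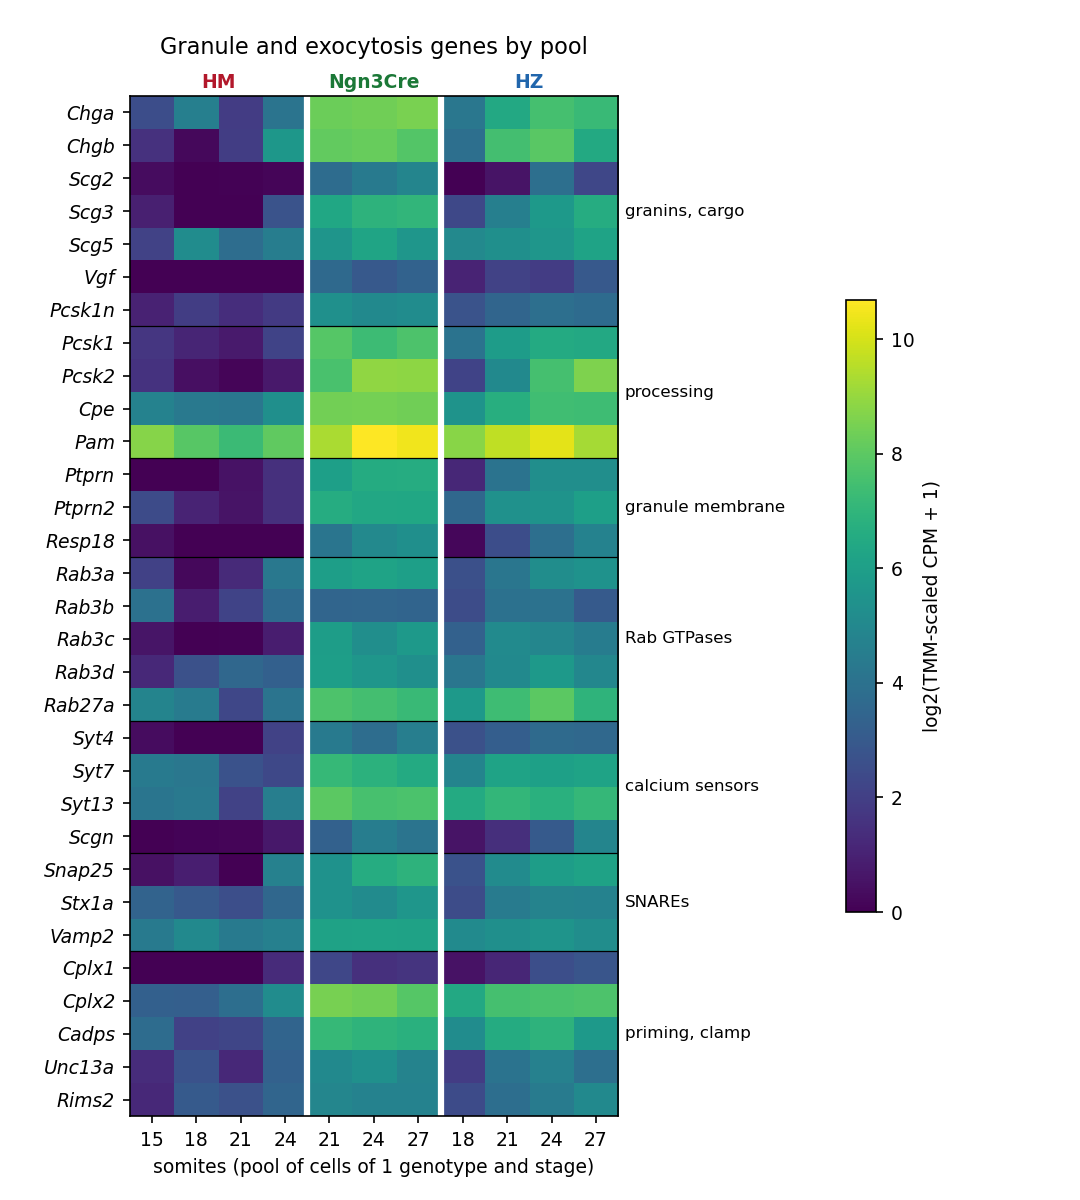
Heat map of log2(scaled CPM + 1) of the 31 genes, 1 strip per gene grouped by role and 1 column per tested pool, with HM, Ngn3Cre and HZ side by side and somite numbers below. At 21 and 24 somites every one of the 31 genes is lower in HM than in HZ, and Pam is the brightest strip in every genotype.

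All processing enzymes were called lower. Pcsk2, the prohormone convertase that releases glucagon from proglucagon in alpha cells (chromosome 2, 143546156 to 143816285, plus strand), had 1.98, 0.354, 0.109 and 0.663 CPM in HM pools, 197, 486 and 465 CPM in Ngn3Cre pools, and 3.44, 32.2, 183 and 395 CPM in HZ pools. It was lower in HM by −7.79 ± 0.87 on the log2 scale (SE, adjusted p = 0.0026), and its HM and HZ pools did not overlap. Pcsk1, the convertase that makes GLP-1 in gut endocrine cells (chromosome 13, 75089826 to 75134861, plus strand), had 2.25, 1.15, 0.708 and 3.41 CPM in HM pools, 231, 161 and 206 CPM in Ngn3Cre pools, and 15.7, 59.4, 91.3 and 86.7 CPM in HZ pools. Its difference was −4.97 ± 0.54 (adjusted p = 0.00222), again without overlap, and this is 1 of the genes with the full element before its start.

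Cpe, which trims the basic residues left by the convertases (chromosome 8, 64592542 to 64693054, minus strand), had 25.6, 18.8, 18.1 and 38.7 CPM in HM pools, 344, 350.1 and 334 CPM in Ngn3Cre pools, and 43.8, 103, 169 and 163 CPM in HZ pools. The difference was −2.01 ± 0.29 (adjusted p = 0.0096), and every HM pool stayed below every HZ pool. Pam, the amidating enzyme (chromosome 1, 97795114 to 98095646, minus strand), was the most abundant of the 31 per gene length by the authors' TPM. It had 427, 237, 155 and 269 CPM in HM, 644, 1649.7 and 1398 CPM in Ngn3Cre, and 436, 819, 1214 and 602 CPM in HZ pools. Its difference of −1.74 ± 0.31 passed the threshold (adjusted p = 0.0301), with the HM pool of 15 somites just under the lowest HZ pool. The call of Pam was lost without the HM pool of 21 or 24 somites or the HZ pool of 21 or 24 somites.

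The 3 granule membrane or matrix proteins were at or under 4.49 CPM in every HM pool. Ptprn, the granule-resident phosphatase-like protein IA-2, had 0, 0, 0.436 and 1.82 CPM in HM pools, 64.6, 94.3 and 95.9 CPM in Ngn3Cre pools, and 1.31, 15.9, 37.6 and 38.2 CPM in HZ pools (log2 fold change −4.79 ± 0.43, adjusted p = 0.000657). The HM pool of 24 somites exceeded the HZ pool of 18 somites, so the pools overlapped, while at each shared stage HM was lower. Its paralog Ptprn2 (phogrin; chromosome 12, 116485720 to 117276849, plus strand) had 4.49, 1.06, 0.490 and 1.77 CPM in HM pools, 98.6, 84.6 and 82.6 CPM in Ngn3Cre pools, and 10.9, 41.5, 44.4 and 65.3 CPM in HZ pools, and differed by −4.92 ± 0.56 (adjusted p = 0.00277) with no overlap. Resp18, a granule protein related to the luminal part of IA-2, had 0.396, 0, 0 and 0.0184 CPM in HM pools, 16.8, 31.6 and 39.0 CPM in Ngn3Cre pools, and 0.123, 4.78, 14.1 and 25.9 CPM in HZ pools. It was called lower (adjusted p = 0.00059), but its HM counts are 4 reads in all, so its fitted fold change is no estimate of size. Over the 3 shared stages HM had 1 read and HZ 743, which puts HZ 639-fold above HM per read sequenced, with an exact interval of 114 to 25263 that covers counting error only.

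Among granins and cargo, 2 of 7 passed the threshold. Vgf, a granin-like neuropeptide precursor (chromosome 5, 137026392 to 137033351, plus strand), had 0 reads of 110196017 in the HM pools, 11.6, 6.91 and 9.36 CPM in Ngn3Cre pools, and 1.11, 3.31, 2.69 and 6.96 CPM in HZ pools. It was called (adjusted p = 0.0162). Over the 3 shared stages HZ had 322 reads, and a floor of 3 reads over the HM pools of those stages (0.0294 CPM) puts HM 92.3-fold lower. The exact lower limit of the fold, which also covers counting error in the HZ reads, was 74.6. The call was lost without the HM, HZ or Ngn3Cre pool of 21 somites, and with Vgf at the value set by 3 reads the median of the 31 genes was still −3.23. Chgb (chromogranin B; chromosome 2, 132781278 to 132795079, plus strand), another gene with the full element, had 1.85, 0.177, 2.89 and 49.6 CPM in HM pools, 276, 296 and 223 CPM in Ngn3Cre pools, and 13.9, 179.6, 245 and 89.1 CPM in HZ pools. It was lower by −3.91 ± 0.77 (adjusted p = 0.0408), although the HM pool of 24 somites overlapped the HZ pools, and of the 11 fits that left out a pool the call was kept in 3 (those without HM at 24, HZ at 27 or Ngn3Cre at 24 somites).

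Chga (chromogranin A; chromosome 12, 102554969 to 102565028, plus strand) is among the 3 most abundant of the 31 genes by TPM and did not pass. It had 4.76, 23.8, 2.75 and 16.2 CPM in HM pools, 309, 334 and 367 CPM in Ngn3Cre pools, and 18.1, 86.1, 185 and 152 CPM in HZ pools (log2 fold change −2.86 ± 0.94, adjusted p = 0.216). At 18 somites the HM pool was above the HZ pool and at 21 and 24 somites below it. Scg3, which binds chromogranin A in the granule, differed by −4.85 ± 1.04 (adjusted p = 0.0576), Scg2 by −5.57 ± 1.26 (adjusted p = 0.0847), Pcsk1n, an inhibitor of Pcsk1, by −2.09 ± 0.45 (adjusted p = 0.0582) and Scg5, the chaperone of Pcsk2, by −0.998 ± 0.38 (adjusted p = 0.281), all by the same edgeR test. Scg2, which also holds the full element, had at most 0.264 CPM in any HM pool, 12.9, 19.7 and 28.2 CPM in Ngn3Cre pools and 0, 0.484, 14.1 and 3.86 CPM in HZ pools, so its HZ level was itself near 0 until 24 somites.

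3 of 5 GTPases were called lower. Rab3c (chromosome 13, 110054187 to 110280996, minus strand) had 0.529, 0, 0.0544 and 0.810 CPM in HM pools, 60.3, 38.2 and 53.8 CPM in Ngn3Cre pools, and 9.00, 33.6, 28.8 and 21.7 CPM in HZ pools (log2 fold change −6.35 ± 0.81, adjusted p = 0.00541). Rab3d (chromosome 9, 21907491 to 21918192, minus strand) had 1.32, 5.31, 10.8 and 8.66 CPM in HM pools, 63.5, 47.7 and 39.5 CPM in Ngn3Cre pools, and 17.2, 33.0, 53.1 and 29.7 CPM in HZ pools (−2.01 ± 0.30, adjusted p = 0.0118). Rab27a, which tethers granules at the cell cortex (chromosome 9, 73044854 to 73097629, plus strand), had 27.0, 20.8, 3.81 and 16.5 CPM in HM pools, 209.8, 177 and 149 CPM in Ngn3Cre pools, and 52.0, 166, 251 and 121 CPM in HZ pools (−3.54 ± 0.70, adjusted p = 0.0406). None of these 3 overlapped between HM and HZ. Rab3d lost its call without the HZ pool of 24 somites, and Rab27a kept it in 3 of the 11 fits that left out a pool (those without HM at 18, HZ at 18 or Ngn3Cre at 24 somites). Rab3a differed by −2.58 ± 0.70 (adjusted p = 0.134) and Rab3b by −1.40 ± 0.57 (adjusted p = 0.323).

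Of the synaptotagmins and calcium-binding proteins, Syt13 was called. This synaptotagmin, which lacks the residues that bind calcium (chromosome 2, 92915098 to 92956058, plus strand), had 16.7, 18.9, 3.35 and 23.0 CPM in HM pools, 257, 191 and 204 CPM in Ngn3Cre pools, and 92.6, 132, 108 and 139.7 CPM in HZ pools (−3.08 ± 0.58, adjusted p = 0.034). HM and HZ pools were apart by a wide gap, and the HZ pool of 18 somites was already close to the later ones. The call was lost without the HM or HZ pool of 18 somites, the HZ pools of 21 or 24 somites or the Ngn3Cre pool of 27 somites. Syt7 (−2.997 ± 0.63, adjusted p = 0.0537), Scgn (−3.91 ± 0.85, adjusted p = 0.0604) and Syt4 (−4.08 ± 1.39, adjusted p = 0.232) did not pass.

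Of the complexins and priming factors, Cplx2 and Cadps were called. Cplx2, which clamps and promotes SNARE fusion (chromosome 13, 54371349 to 54383917, plus strand), had 8.59, 8.41, 13.5 and 35.4 CPM in HM pools, 358, 326 and 234 CPM in Ngn3Cre pools, and 86.6, 185, 195 and 210.4 CPM in HZ pools (−3.23 ± 0.31, adjusted p = 0.00105). Cadps, the priming factor CAPS1 (chromosome 14, 12372563 to 12823079, minus strand), had 12.7, 3.19, 3.70 and 9.74 CPM in HM pools, 140.3, 124 and 111 CPM in Ngn3Cre pools, and 35.3, 93.7, 120.3 and 52.7 CPM in HZ pools (−3.82 ± 0.34, adjusted p = 0.000609). Neither overlapped between HM and HZ, and these were the genes among the 15 whose call was kept in all 23 alternative settings tried. Cplx1 had at most 1.46 CPM in any HM pool and at most 6.10 CPM in any HZ pool (−3.37 ± 1.66, adjusted p = 0.422). Unc13a (−1.35 ± 0.76, adjusted p = 0.493) and Rims2 (−0.70 ± 0.51, adjusted p = 0.602) did not pass.

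The SNARE proteins, which drive the fusion itself, had 0 of 3 past the threshold. Vamp2 had 20.1, 33.0, 20.4 and 24.1 CPM in HM pools and 33.9, 39.3, 44.9 and 37.3 CPM in HZ pools (−0.63 ± 0.24, adjusted p = 0.28). Every HM pool was below every HZ pool, by a small margin. Stx1a differed by −0.97 ± 0.49 (adjusted p = 0.431) and Snap25 by −2.97 ± 1.14 (adjusted p = 0.288). Snap25 was called lower in HM in both fits that left out cells with neural markers. Over the 31 genes, 16 had every HM pool below every HZ pool, where 5.23% of all genes tested did, and 0 the reverse, where 2.36% did.

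**Figure D2:**
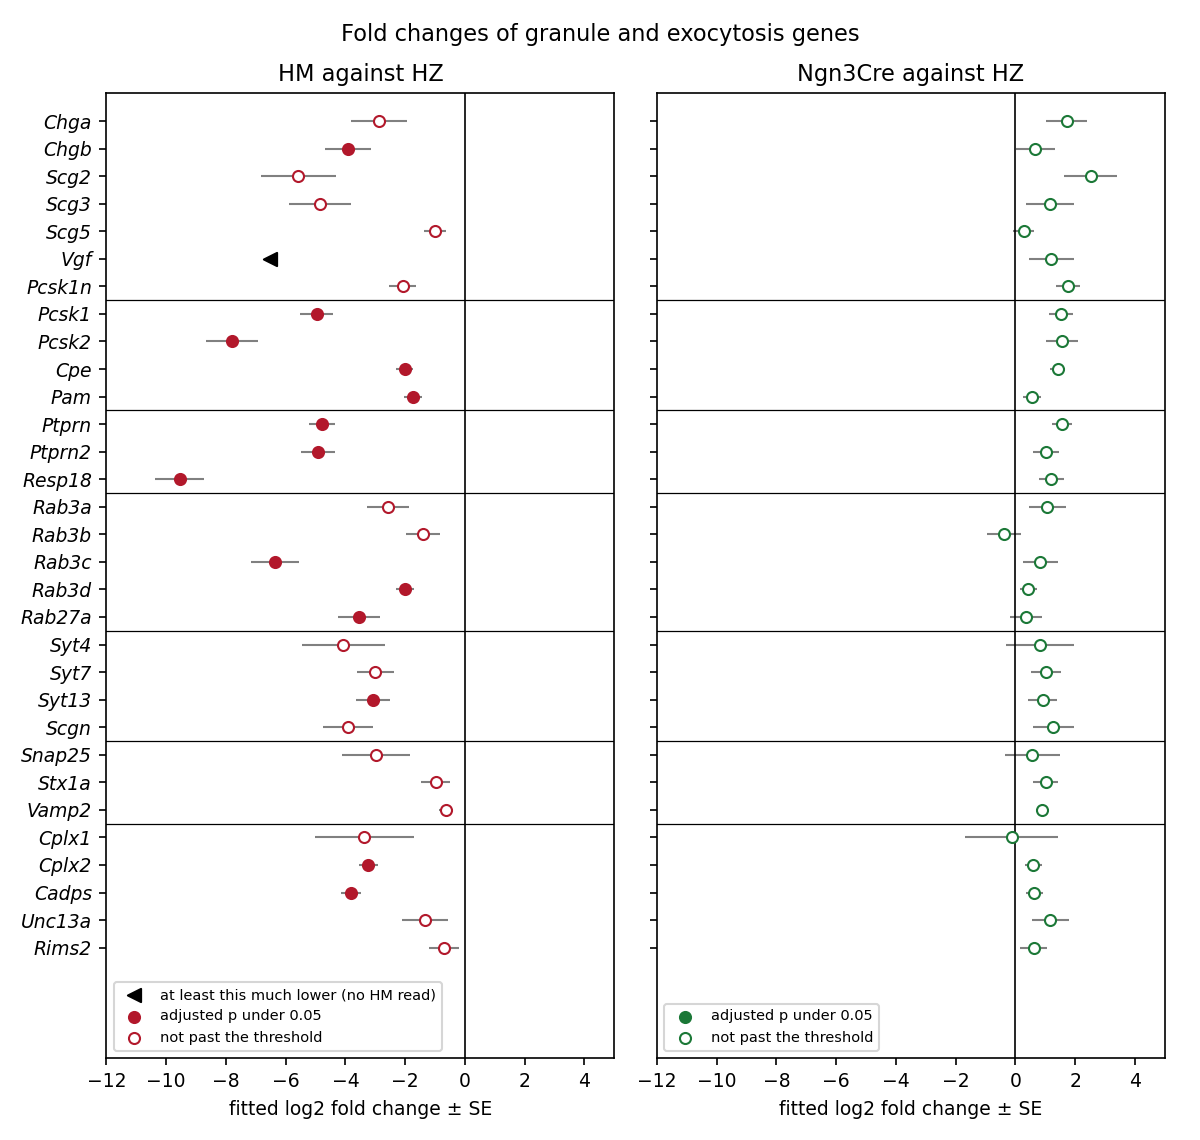
Fitted log2 fold changes with standard errors for the 31 genes, grouped by role, for HM against HZ (left) and for Ngn3Cre against HZ (right), with filled points past an adjusted p of 0.05 and a black triangle for the shared-stage bound of Vgf (−6.53), which had 0 HM reads and was also called. All HM values lie below 0, and 29 Ngn3Cre values lie above 0 with none past the threshold. The fitted HM value of Resp18 rests on 4 HM reads and is not an estimate of size.

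Other genes of the same machinery were tested as a list of 60, of which 58 passed the filter on low counts. 6 of the 58 were called lower in HM and 0 higher, where 1.38% of all genes were called lower and 0.0923% higher, with a median log2 fold change of −0.83. They were Rph3al, an effector of Rab3 and Rab27 (−3.56 ± 0.39, adjusted p = 0.00249), Baiap3 (−3.55 ± 0.50, adjusted p = 0.00895), Sv2c (−5.52 ± 0.89, adjusted p = 0.0178), Pclo, an active zone scaffold (−2.28 ± 0.39, adjusted p = 0.0238), Slc18a2, the vesicular monoamine transporter (−1.89 ± 0.36, adjusted p = 0.0381), and Hid1, a factor of granule formation (−2.84 ± 0.58, adjusted p = 0.0462). Of 23 tested genes of constitutive secretion, 0 were called by edgeR's quasi-likelihood test and the median was −0.02. At the same shares of all genes, 0 calls among 23 genes do not show that this list was unchanged. In that test 7 of the 23 had an unadjusted p under 0.05, as had 13.4% of all genes in either direction. The smallest p-values there belonged to Ykt6 (−0.76, adjusted p = 0.085), Furin (−1.10, adjusted p = 0.0915), Exoc8 (−1.39, adjusted p = 0.136) and Vamp8 (0.69, adjusted p = 0.254).

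Neurons also use this machinery, so neural markers are given beside these counts. The 12 neural markers summed to a median of 80.3 CPM in HM pools (8.52 to 347), 523 CPM in Ngn3Cre pools (150 to 1472) and 165 CPM in HZ pools (94.0 to 691), with reads of 10 markers in HM (Foxd3 and Tfap2b at 0) and of all 12 in Ngn3Cre and HZ. In HM against HZ, 11 of the 12 had negative and 1 a positive fold change (median log2 −2.64), and edgeR's test called 1 lower. Hepatic markers were Alb, Afp, Apoa1, Apoa2, Fgb, Fga, Ttr, Serpina1a, Trf and Ahsg. They summed to a median of 5618 CPM in HM (232 to 15341), 1469 CPM in Ngn3Cre (802 to 1590) and 1920 CPM in HZ pools (1166 to 9761). They did not all go 1 way in HM against HZ: 8 fold changes were positive and 2 negative (log2 −4.09 to 2.87). By edgeR's test 0 of the 10 were called and 6 had an unadjusted p under 0.05, as had 13.4% of all genes in either direction. Whether reads of these markers, Ttr among them, came in part from endocrine cells was not examined. Without cells that carried neural markers (at least 2 of 11 at 50 CPM or more, 77 cells, a gate chosen after seeing the data), 23 of the 31 genes were called lower in HM, where 2.13% of all genes were. The 8 mesenchyme markers summed to a median of 13.7 CPM in HM (4.60 to 228), 40.4 CPM in Ngn3Cre (19.6 to 213) and 76.1 CPM in HZ pools (21.1 to 147). All 8 had negative fold changes in HM against HZ (median log2 −2.63). By edgeR's test 0 of the 8 were called and 3 had an unadjusted p under 0.05, as had 13.4% of all genes in either direction. The part of mesenchyme markers in the differences was not tested. In the HM pool of 24 somites, 7 of 80 cells carried such markers and held 97.8% of the Syt4 reads, 88.5% of Snap25, 76.6% of Chgb, 75.7% of Scg3, 52.9% of Syt13 and 38.0% of Cplx2, against 5.6% of Pcsk2, 2.1% of Ptprn2 and 1.5% of Cadps. In the other cells of that pool Chgb stood at 13.4 CPM and Syt4 at 0.0853 CPM.

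Shares of cells differed in the same direction. At 24 somites, with each cell thinned to 100000 reads (7 HM and 14 HZ cells left out as shallower), Cplx2 had a read in 50.7% of 73 HM cells (exact binomial 95% interval 38.7% to 62.6%) and in 81.7% of 71 HZ cells (70.7% to 89.9%). Without thinning it reached 10 CPM in 47.5% of HM and 75.3% of HZ cells. Pcsk2 had a read in 4.11% of HM cells (0.856% to 11.5%) and in 50.7% of HZ cells (38.6% to 62.8%), and reached 10 CPM unthinned in 1.25% of HM and 50.6% of HZ cells. Resp18 had a read in 0 of 73 HM cells (3 cells would be 4.11%, and the exact upper limit is 4.93%), which limits cells with a read and not cells that express the gene, and in 25.4% of HZ cells (15.8% to 37.1%). As background, of the 22 thinned cells rich in hepatic markers 18.2% had a read of Cplx2 (5.19% to 40.3%), 9.09% one of Pcsk2 and 0% one of Resp18. The HM shares of Pcsk2 and Resp18 were no higher than this background, which is not free of endocrine transcripts or of HM cells. Before thinning, a hepatic-marked cell held up to 21 of the 31 genes at 10 CPM or more. Among these cells, 1 HM and 1 Ngn3Cre cell of 24 somites had at least 1000 CPM of Gcg. A further 1, an HZ cell of 24 somites, had at least 50 CPM of Neurog3, and 9 were from the HM pool of 21 somites. The intervals cover counting error over the cells of 1 pool per genotype and test no difference between genotypes. Over the 31 genes and 3 shared stages, HM had the lower share of cells at 10 CPM or more in 85 of 93 comparisons, in 81 at 50 CPM or more and in 87 by 1 read in thinned cells. The median number of the 31 genes at 10 CPM or more per cell was 5, 4, 3 and 6 in HM, 20, 20 and 22 in Ngn3Cre, and 4, 12, 18 and 15 in HZ cells, against 2 in hepatic-marked and 11 in neural-marked cells.

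Cells were then put in classes by their own landmarks: Neurog3-high cells had at least 50 CPM of Neurog3 and under 1000 CPM of Gcg, and Gcg-high cells at least 1000 CPM of Gcg. The rest, below both limits, are called cells with neither, though they can hold reads of both genes. HM held 168 cells with neither, 1 Neurog3-high and 2 Gcg-high cells, and HZ and Ngn3Cre together 284, 233 and 142, of which 59, 6 and 4 carried neural markers. The 2 HM Gcg-high cells, both of 24 somites, were shallow, with a median of 13386.5 reads. Thinning kept 0 of them, and 1 carried hepatic markers. Levels were compared within the cells that had neither and at least 100000 reads (15 HM and 31 HZ cells at 18 somites, 35 and 71 at 21, 73 and 38 at 24). From all reads of these cells, without thinning, the median level over the 31 genes was 1.13, 1.38 and 9.10 CPM in HM, against 2.73, 17.6 and 25.5 CPM in HZ. HM was lower for 14, 31 and 29 of the 31 genes at the 3 stages. The difference at 21 and 24 somites was thus also present among cells below both limits, with 1 pool per genotype and stage and no test. It was not examined in cells that lack both genes. Without Gcg-high cells, chosen after seeing the data, 9 of the 31 genes were called lower in HM, where 0.773% of all genes were.

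Ngn3Cre was compared with the same HZ pools, so both contrasts share their HZ samples. No gene of the 31 was called in either direction by edgeR's quasi-likelihood test, where 0.331% of all genes tested were called lower and 0.00543% higher. 29 of 31 fold changes were positive, with a median log2 fold change of 1.01 against −0.02 for all genes, and 11 had an unadjusted p under 0.05, as had 10.5% of all genes in either direction. Without the Ngn3Cre pool of 21 somites the median was 0.60. DESeq2, which called 1.17% of all genes higher, called 6 of the 31 higher, namely Cpe, Ptprn, Pcsk1n, Pcsk1, Vamp2 and Scg2, with adjusted p-values between 7.32e-05 and 0.0189. In edgeR the same genes had log2 fold changes of 1.41 ± 0.26 for Cpe (adjusted p = 0.0663), 1.56 ± 0.32 for Ptprn (0.0884), 1.76 ± 0.40 for Pcsk1n (0.108), 1.53 ± 0.42 for Pcsk1 (0.176), 0.90 ± 0.23 for Vamp2 (0.145) and 2.53 ± 0.89 for Scg2 (0.323). 15 genes had every Ngn3Cre pool above every HZ pool, where 8.65% of all genes tested did, and 0 the reverse, where 7.62% did. The 2 negative values were Rab3b (−0.38 ± 0.56) and Cplx1 (−0.13 ± 1.56). Neural markers had a higher median sum in Ngn3Cre than in HZ pools, with overlapping ranges, but did not move as a set. Of the 12 markers, 7 had negative and 5 positive fold changes (median log2 −0.07). By edgeR's test 0 were called and 0 had an unadjusted p under 0.05. Without the 77 cells carrying them edgeR called 3 of the 31 genes higher, where 0.191% of all genes were.

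The same contrast gave no call in the companion lists. Of 58 further granule and exocytosis genes, 0 passed edgeR's test, the median log2 fold change was 0.34, and the smallest p-values were those of Rab37 (2.05, adjusted p = 0.156), Napa (0.61, adjusted p = 0.17), Sv2c (1.99, adjusted p = 0.307) and Slc30a8, the granule zinc transporter (2.69, adjusted p = 0.308). Of 23 genes of constitutive secretion, 0 passed and the median was 0.12, led by Snap23 (−0.42, adjusted p = 0.429), Vamp3 (0.44, adjusted p = 0.434), Stx4a (0.49, adjusted p = 0.545) and Vamp8 (−0.52, adjusted p = 0.551).

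With stage, no gene passed in any genotype, although all 31 slopes on somite number were positive in HZ pools, with a median of 0.24 log2 units per somite against 0.00 for all genes. This rested on the earliest pool: without the HZ pool of 18 somites 10 of the 31 slopes were negative and the median was 0.09, and without that of 27 somites the median was 0.37. By edgeR's quasi-likelihood test 0 of 31 were called higher, where 0.00543% of all genes were, 13 had an unadjusted p under 0.05 (8.76% of all genes in either direction), and DESeq2, which called 0.869% of all genes higher, called 7 (Scgn, Ptprn, Pcsk2, Resp18, Rims2, Cpe and Scg2). Pcsk2 had a slope of 0.77 ± 0.13 per somite (adjusted p = 0.184) and Scgn, a calcium sensor of endocrine cells, one of 0.65 ± 0.10 (adjusted p = 0.184). Scgn had 0.491, 1.69, 7.23 and 27.8 CPM in HZ, higher at each stage than at the one before. In HM, 21 slopes were positive (median 0.08), 0 were called where 0% of all genes were, 11 had an unadjusted p under 0.05 (8.96% of all genes), and DESeq2 called 1 lower and 2 higher, where it called 0.608% and 1.22% of all genes. The HM median was 0.28 without the pool of 15 somites, 0.12 without that of 18 and −0.18 without that of 24, where 20 of the 31 slopes were negative. In Ngn3Cre 14 were positive (median −0.01), 0 were called where 0% of all genes were, 0 had an unadjusted p under 0.05 (1.87% of all genes), and DESeq2 called 0, where it called 0.0434% of all genes lower and 0.0326% higher. The slope of HM minus that of HZ was called for 0 genes where 0% of all genes were, with 6 at an unadjusted p under 0.05 (8.71% of all genes). DESeq2, which called 0.489% of all genes lower, called 4 lower, Syt7 (−0.42 ± 0.09 in edgeR, adjusted p = 0.462), Pcsk2 (−0.93 ± 0.19, adjusted p = 0.462), Resp18 (−1.26 ± 0.33, adjusted p = 0.503) and Scg2. HZ pools also changed in makeup: Gcg-high cells were 0% of HZ cells at 18 somites and 30.8% at 27 somites.

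The order of onset was read from cells of HZ and Ngn3Cre with at least 100000 reads, as the share of cells with a read and as the CPM of the class. The share was taken after thinning to 100000 reads, and the CPM of a class from all reads of the same cells. Both were averaged over the 4 pools with at least 10 cells in each class (HZ at 24 somites, Ngn3Cre at 21, 24 and 27 somites). These are descriptions with no test, and the order of the classes is one of landmarks, not of time followed in a cell. 59 cells lay within 2-fold of the Neurog3 limit and 26 within 2-fold of the Gcg limit. At 18 somites, the earliest HZ pool tested, no cell was Gcg-high, and the 18 Neurog3-high cells (29.5% of the pool) held a median of 78.3% of the reads of the 31 genes. They held 99.0% of Pcsk1, 97.7% of Rab3c, 96.6% of Ptprn2, 96.2% of Chgb, 93.7% of Syt13 and 90.2% of Cplx2 reads, against 36.6% of Scg5, 33.9% of Rab3b, 32.8% of Unc13a, 30.1% of Stx1a and 29.0% of Rab3a reads. At 27 somites the Gcg-high cells held a median of 63.7%.

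In 4 of 4 pools, 5 genes had a lower level in Gcg-high than in Neurog3-high cells. Cplx2 stood at 149.8 ± 41.1 CPM in cells with neither, 528 ± 140.0 in Neurog3-high and 183 ± 38.9 CPM in Gcg-high cells (SD, n = 4 pools). Its share of cells was 76.9%, 99.2% and 95.8%, so the number of cells with a read hardly moved between the last 2 classes while the level did. Rab3c stood at 34.4 ± 20.4, 89.1 ± 34.0 and 22.5 ± 2.91 CPM, and its share was 47.5%, 72.4% and 47.7%. Syt13 (76.3, 298 and 212 CPM) and Rab3d (33.7, 78.7 and 52.3 CPM) were also highest in Neurog3-high cells. Rab3b differed from all of these by being highest in cells with neither (17.9, 9.60 and 4.84 CPM).

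**Figure D3:**
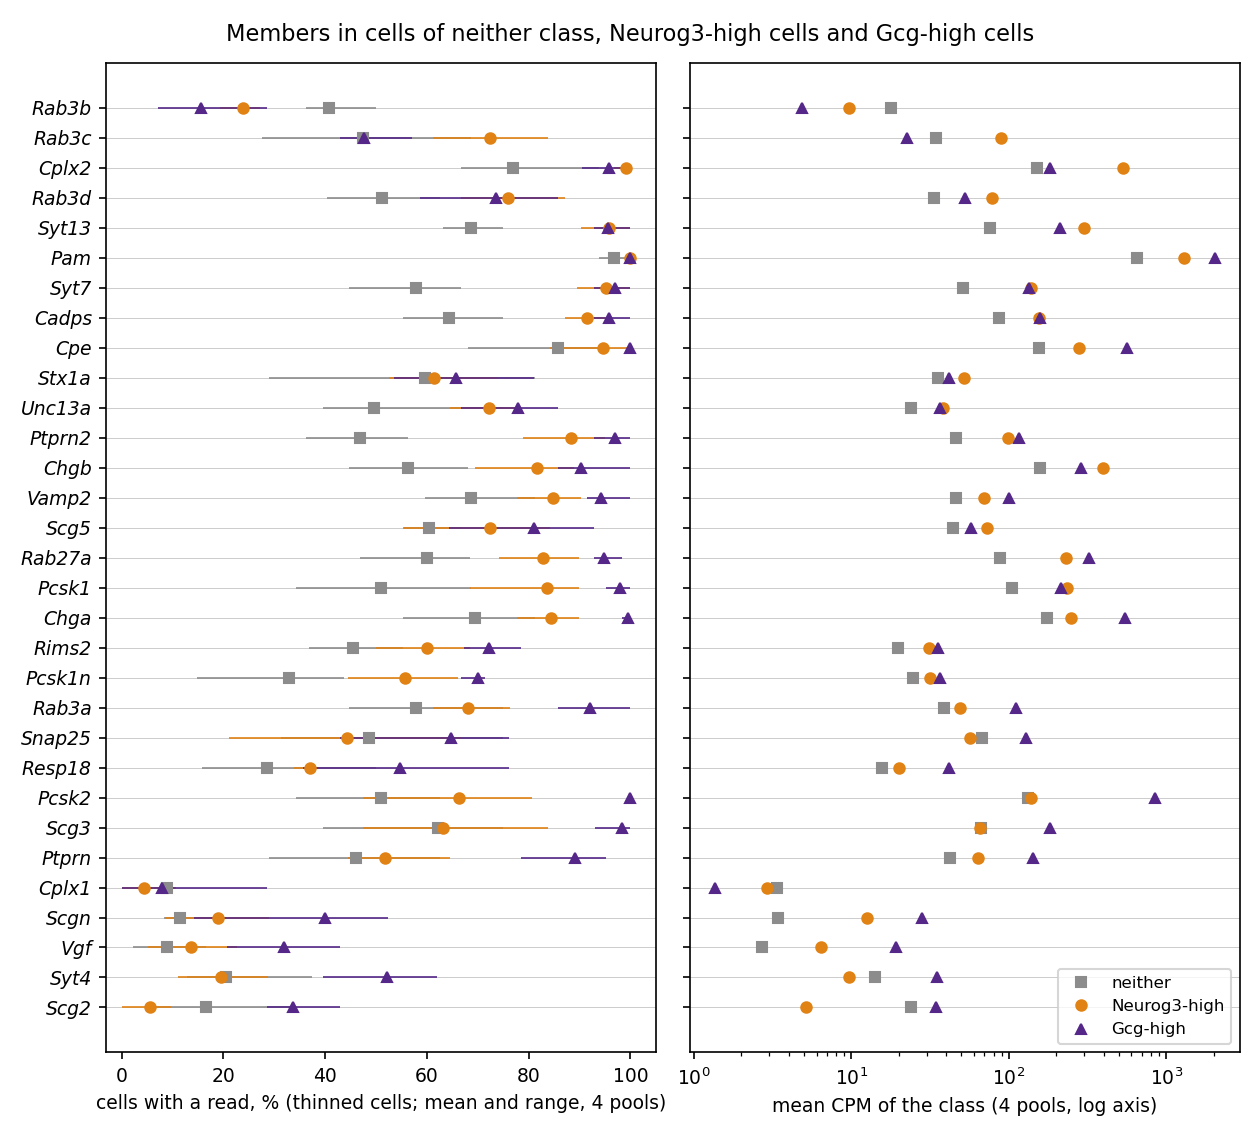
Share of thinned cells with a read (left, percent, mean and range) and mean CPM of the class (right, log axis) of the 31 genes. The classes are cells below both limits (neither, grey squares), Neurog3-high (orange circles) and Gcg-high cells (purple triangles), over the 4 pools that hold all classes. Cplx2, Syt13 and Syt7 are at 99.2%, 95.8% and 95.2% in Neurog3-high cells, whereas Pcsk2 and Scg3 are at 66.3% and 63.1% there and at 100% and 98.3% in Gcg-high cells.

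A further set was higher in Neurog3-high cells than in cells with neither and about as high in Gcg-high cells. Syt7 stood at 50.8 ± 14.0, 137.6 ± 39.7 and 134 ± 24.2 CPM in the 3 classes, Cadps at 86.2, 156 and 159 CPM, Ptprn2 at 46.1, 99.1 and 116 CPM and Pcsk1 at 105, 233 and 213 CPM. Chgb was at 158, 398 and 286 CPM, with the lower level in Gcg-high cells in 3 of 4 pools. In all, 15 of the 31 genes had a higher share in Neurog3-high cells than in cells with neither in each of 6 pools, and 13 had a share in Neurog3-high cells of at least 90% of that in Gcg-high cells. The last count was 20 without thinning, 17 with thinning to 300000 reads, 18 with the Gcg limit at 200 CPM and 9 with the Neurog3 limit at 10 CPM. The classes were compared for the 31 genes alone. How many of all genes differ between classes in the same way is therefore not known, and these counts do not set the 31 apart.

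The remaining set described here was highest in Gcg-high cells of the 3 classes. Pcsk2 stood at 132 ± 86.4 CPM in cells with neither, 137 ± 37.7 in Neurog3-high and 846 ± 155 CPM in Gcg-high cells, with shares of 51.0%, 66.3% and 100%. Scg3 had 66.1, 66.0 and 184 CPM, Ptprn 42.3, 63.6 and 143 CPM, Rab3a 38.9, 48.9 and 111 CPM, Chga 175, 248 and 544 CPM and Cpe 155, 277 and 559 CPM. All of these were higher in Gcg-high than in Neurog3-high cells in 4 of 4 pools, as were Pam, Snap25, Resp18 and Syt4. The class with neither was mixed: over all pools, 18 of its 240 thinned cells had at least 50 CPM of Fev. In these 18 cells Pcsk2 had a read in 94.4% and Scg3 in 88.9%. Their Pam (2274 CPM) and Resp18 (65.6 CPM) were near the Gcg-high levels (2564 and 52.1 CPM). Their Pcsk2 (162 CPM) and Chga (299 CPM) stayed below those levels (950 and 542 CPM). The levels in this comparison are from thinned reads over all pools. Of the low cargo genes, Scg2 had a read in 16.5%, 5.50% and 33.6% of cells, Vgf in 8.89%, 13.6% and 32.0%. For 14 of the 31 genes the share was higher in Gcg-high cells in each of the 4 pools, but this count was 6 with the Gcg limit at 200 CPM and 7 without thinning, so it depends on where Gcg-high begins and on depth. No share of all genes stands beside it either. The 3 genes with the full element were in different sets, since Pcsk1 and Chgb were already frequent in Neurog3-high cells (83.6% and 81.6% of cells) and Scg2 was not. The paralogs Ptprn and Ptprn2 had shares of 51.8% and 88.3% in Neurog3-high cells.

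Cell by cell, Pcsk2 was read in many cells below the Gcg limit and in every cell above it. Of 570 thinned HZ and Ngn3Cre cells, all 121 Gcg-high cells had a Pcsk2 read, and a further 191 cells had one with Gcg under 1000 CPM. Cpe and Pam also had a read in all 121, whereas Scg2 lacked one in 82. Among the 216 cells with at least 50 CPM of Neurog3, Cplx2 lacked a read in 5, Syt13 in 11, Chga in 54, Pcsk2 in 99 and Scg2 in 204. Along Gcg bins of under 10, 10 to 100, 100 to 1000, 1000 to 10000 and at least 10000 CPM (149, 206, 94, 35 and 86 cells), Pcsk2 stood at 37.0, 69.7, 127, 785 and 1017 CPM and Chga at 89.1, 167, 219, 429 and 588 CPM, higher in each bin than in the one before. Cplx2 stood at 191, 316, 369.8, 296 and 206 CPM and Rab3c at 32.4, 51.7, 47.1, 33.7 and 20.9 CPM, highest below the Gcg limit and lower above it. Syt13 and Rab3d were instead highest between 1000 and 10000 CPM of Gcg, Syt13 at 252 CPM and Rab3d at 76.3 CPM. The first 3 bins held 10, 23 and 25 cells with neural markers and the last 2 held 0.

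**Figure D4:**
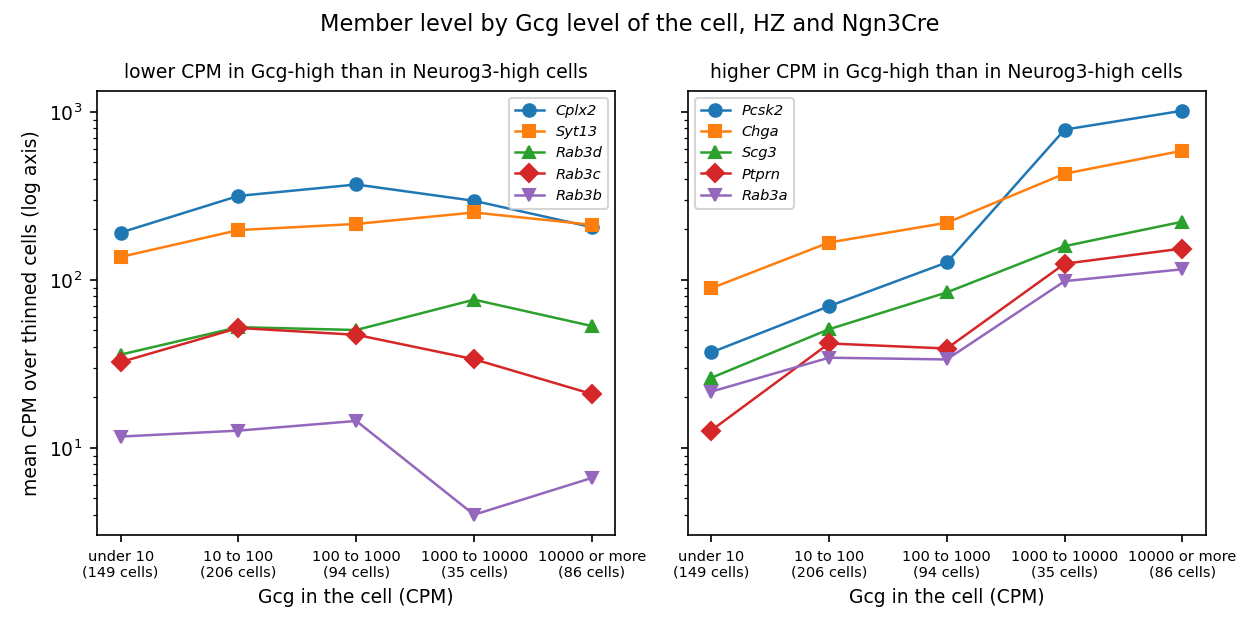
CPM (log axis) of the 5 genes lower in Gcg-high than in Neurog3-high cells in 4 of 4 pools (left) and of 5 genes that were higher (right), in thinned HZ and Ngn3Cre cells binned by their own Gcg level, from under 10 CPM to at least 10000 CPM. Pcsk2, Chga and Scg3 are higher in each bin than in the one before, while Cplx2 is highest, at 369.8 CPM, between 100 and 1000 CPM of Gcg.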

How the data were processed

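The deposited counts (whole reads per gene and cell, not normalized by the authors) were analysed for 830 cells, each 1 deposited sample, and the deposited TPM values, which the authors scaled by gene length and to a fixed sum per cell, were used to compare levels between genes and in a limma alternative (log2(TPM + 1)). FastQC 0.11.9, Trimmomatic 0.39 and HISAT2 2.1.0 with GRCm38 and mm10 are named in the submitters' processing notes. No source used here names the read counter, the annotation, or the use of strand and of molecular identifiers, so reads are not known to be independent molecules, and intervals and floors cover counting error only.

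Groups came from the labels. Counts were summed by genotype and stage into 14 pools, and those with 10 cells or more (11) entered 1 edgeR 4.0.16 quasi-likelihood fit (R 4.3.3, TMM scaling, filterByExpr, 18420 genes) with genotype and stage as factors, and a second fit with a slope on somite number per genotype. P-values were adjusted over all genes by Benjamini-Hochberg (0.05), and the standard error is the absolute log2 fold change over the square root of F. The fits were tested on simulated data. Alternatives used DESeq2 1.42.0, limma 3.58.1, other filters, gates and pools. The 31 genes and all lists were chosen with earlier results of these data known. Genes were named by rule: every one of the 31, and of the companion lists the 4 with the smallest p per contrast and any past the threshold. Genes singled out among the slopes, onset sets and bins were chosen after their values were seen. Hepatic-marked cells had at least 6 of 10 markers at 100 CPM or more. Thinning to 100000 reads left out 117 shallower cells (per class, 240 of 284, 209 of 233 and 121 of 142 HZ and Ngn3Cre cells were kept). No doublet caller was run. Positions are from GENCODE vM21. Promoter sequences are RefSeq's (GRCm38.p6), and 8 genes with no entry are Vgf, Cpe, Syt4, Syt7, Syt13, Snap25, Vamp2 and Rims2. Proteins were not used here.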

Additional observations from a re-analysis of the deposited data

Results flagged for a closer look

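In groups of 4 pools, 8 of 61 groups (1 gene in HM or in HZ) had a pool whose gap to the nearest other exceeded Dixon's limit of 0.829 of the range. That limit is made for replicate draws from a normal distribution. These are CPM of 4 different stages, some at 0, so the limit only flags pools here and no chance rate is set beside the count. In 6 of them the HM pool of 24 somites stood apart as the highest. Chgb had 49.6 CPM there, against 0.177 to 2.89 CPM in the other HM pools, Snap25 25.1 CPM against 0 to 0.885 CPM, and Rab3a 18.7 CPM against 0.177 to 3.17 CPM. Scg3 had 5.62 CPM against 0 to 0.925 CPM, Syt4 3.28 CPM against 0 to 0.264 CPM, and Cplx1 1.46 CPM against 0 in each of the others. In that pool, 7 of 80 cells carried neural markers and held 97.8% of the reads of Syt4, 88.5% of Snap25, 76.6% of Chgb, 75.7% of Scg3 and 48.5% of Rab3a, while no cell with these markers was found in the HM pools of 15, 18 and 21 somites.

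Resp18 stood apart in the HM pool of 15 somites at 0.396 CPM, against 0 to 0.0184 CPM in the others, all of them near the limit of detection. Syt7 stood apart in the HZ pool of 18 somites as the lowest, at 27.7 CPM against 67.2 to 72.5 CPM in the later HZ pools, and this pool held no Gcg-high cell.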

How the results depend on the processing

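Percentages in brackets are the shares of all genes called in the same direction. Against the 15 genes called lower in HM than in HZ (1.38%), DESeq2 called 23 (5.82%), the fit of all 14 pools 5 (0.219%) and the fit on stages with both genotypes 7 (0.442%). The planned neural gate called 22 (2%), the fit without a filter on low counts 19 (1.35%) and limma on TPM 10 (1.12%), 8 of them among the 15. Among alternatives chosen after seeing the data, the stricter neural gate called 23 (2.13%) and the removal of Gcg-high cells 9 (0.773%). Leaving out 1 pool at a time gave 10 to 16, with no share of all genes set beside these. Pcsk1, Pcsk2, Cpe, Ptprn, Ptprn2, Resp18, Rab3c, Cplx2 and Cadps kept their calls in all 11 of those fits. Against the 0 called higher in Ngn3Cre (0.00543%), DESeq2 called 6 (1.17%), the fit without a filter on low counts 1 (0.0279%) and shared stages alone 2 (0.102%). The planned neural gate called 5 (0.23%) and the stricter one 3 (0.191%), and leaving out 1 pool gave 0 to 2 (2 without the HM pool of 21 somites). Of slopes on stage, 0 were called, against 10 in DESeq2, 1 in limma on TPM, 1 without a filter, 4 without cells with neural markers and 0 to 5 with 1 pool left out (5 without the HM pool of 15 somites, 1 without that of 24). Of slope differences, HM minus HZ, 0 were called, against 4 in DESeq2 and 0 to 3 with 1 pool left out (3 without the HM pool of 24 somites). For slopes, shares of all genes are given above for the main fit and DESeq2 and were not set beside the other counts. The 14 genes with a higher share in Gcg-high cells in every pool became 6 with the Gcg limit at 200 CPM and 7 without thinning. The 85 of 93 lower shares in HM at 10 CPM became 81 at 50 CPM and 87 by 1 read in thinned cells.

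Directions of the 31 genes turned in 1 of 713 alternative values for HM (Vamp2, 0.041 with all 14 pools) and in 9 of 713 for Ngn3Cre. In Ngn3Cre, Scg5 was −0.23 with all 14 pools, and Cplx1 was 0.080 without Gcg-high cells and 1.64 without cells with neural markers. With 1 pool left out, Rab3b ranged between −0.77 and 0.027, Rab27a between −0.058 and 0.69, Syt4 between −0.46 and 1.54, and Cplx1 between −2.27 and 0.82. The sign turned for Rab3b without the Ngn3Cre pool of 24 somites, for Rab27a and Syt4 without that of 21 somites, and for Cplx1 without the HZ pool of 27 or the Ngn3Cre pool of 24 or 27 somites. The cause of these shifts was not tested, apart from fewer pools or cells entering a fit. No paired analysis was possible because the replicate numbers only name cells and the tests ran on pools, with stage as a factor. The limits on depth are the 1400 to 2525083 reads per cell, 4 or fewer pools per genotype, and the missing record of embryos.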
